A study of Mus musculus with 8 samples.

Results

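The genes described here encode chromatin regulators: the Polycomb repressive complexes, the enzymes that write and remove DNA methylation, the writers and erasers of histone methylation, and the heterochromatin proteins. The set was a list of 45 gene names, drawn up with earlier results of these data known and with no threshold on their change, and 44 of them were represented among the 18193 genes of the array that carried a single gene name. The expression of the remaining gene, Suv39h1, was not analysed here. Expression was measured on Affymetrix Mouse Expression Array 430 2.0 arrays in LSK cells, the lineage-low, Sca1-positive and cKit-high fraction of marrow that holds blood stem cells and early progenitors. The 8 arrays came from C57BL/6 mice, 4 wild type and 4 heterozygous for mutant JAK2V617F. Age, sex, and any recombinase or promoter behind the mutant allele are not given in the sources used here. Values are log2 intensities, and every difference is mutant minus wild type, so that negative values are lower in mutant cells.

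Polycomb repressive complex 2 (PRC2) methylates lysine on the tail of histone H3, and Polycomb repressive complex 1 (PRC1) ubiquitylates histone H2A. Together they keep developmental genes silent, and Bmi1 of PRC1 is known for sustaining blood stem cell self-renewal. DNA methyltransferases place methyl groups on CpG sites, Tet enzymes oxidise them, and Idh enzymes make the 2-oxoglutarate that Tet enzymes and many histone demethylases need. Genes such as Tet2, Dnmt3a, Asxl1, Ezh2 and Idh2 are recurrently mutated in human myeloid neoplasms, often beside the activated Jak2 kinase. Jak2 has also been described as a kinase of histone H3 that displaces the heterochromatin protein HP1 alpha (Cbx5), and the mutant kinase as one that phosphorylates the arginine methyltransferase Prmt5.

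Median intensity per array lay between 7.06 and 7.15, and arrays correlated pairwise at 0.991 to 0.995 across probe sets. Jak2 itself differed by -0.20 ± 0.09 (SE; limma adjusted p = 0.294). Of 11 stem and progenitor markers, Cd48 (0.35) and Slamf1 (0.72) were higher in mutant cells at an unadjusted p under 0.05. Kit read 12.65 and 12.67, Cd34 14.04 and 13.93 and Flt3 13.46 and 13.40 (wild type and mutant means), and the Sca1 gene Ly6a was not analysed here. Higher values in mutant cells at an unadjusted p under 0.05 occurred in 5 of 9 erythroid markers, 6 of 12 macrophage and dendritic cell markers, 1 of 8 granulocyte markers, 1 of 7 B cell markers and 2 of 7 T and NK cell markers, with 1 T and NK cell marker lower. In this order 55.6%, 50%, 12.5%, 14.3% and 28.6% were higher, and 18.2% of the stem and progenitor markers. Of all genes 11.9% were higher and 5.23% lower at that p, so the granulocyte and B cell shares were near that of all genes. The mean log2 level of the erythroid markers ran from 8.45 to 9.31 in wild type and from 9.26 to 10.31 in mutant arrays. That of the macrophage and dendritic cell markers ran from 8.88 to 9.44 and from 9.53 to 10.12, and that of the granulocyte markers from 11.34 to 12.17 and from 11.83 to 12.47. The B cell markers ran from 7.88 to 8.07 and from 7.90 to 8.10, and the T and NK cell markers from 7.40 to 7.57 and from 7.41 to 7.75. Of the B cell genes, Ighm (11.90 and 12.38, the higher one) and Cd79b (11.76 and 11.76) were bright and Vpreb1 read 9.80 and 9.66, while Ms4a1 read 4.26 and 4.08. Of the T cell genes, Cd3d (0.52) and Cd8a (0.25) were the higher ones and Cd4 (-0.45) the lower one. The smallest p of the other lists belonged to Hbb-b2 (1.67) among erythroid, H2-Ab1 (0.50) among macrophage and dendritic cell and Ltf (1.41) among granulocyte markers. In such bulk samples fewer cells of a type and less RNA per cell cannot be told apart, and the part of these cells in the differences below was not tested. Xist, read by cells with an inactive X chromosome, was high in wild type arrays 1 and 2 (13.46 and 13.42) and mutant array 3 (13.21) and between 5.54 and 6.54 in the other 5 arrays, so the sexes were unevenly spread over the genotypes.

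No member changed past the threshold. Of the 44 members, 0 passed a limma adjusted p of 0.05, against 0.165% of all genes (0.104% higher and 0.0605% lower), and the smallest adjusted p of a member was 0.192. At an unadjusted limma p under 0.05 there were 3 members, all lower in mutant cells: the histone methyltransferase gene Kmt2a, the deubiquitinase subunit gene Asxl2 and the PRC1 subunit gene Phc3. That is 6.82% of the members lower and 0 higher, where 5.23% of all genes were lower and 11.9% higher at the same unadjusted p. Among the 6370 genes at least as bright as the lower quartile of the members, 13% had such a p, 6.3% lower and 6.72% higher. The arrays of the genotypes did not overlap for 2 members, Phc3 and Asxl2, both lower, against 10.1% of all genes (3.33% lower and 6.82% higher). With the sex-linked expression described above as a covariate 4 members had an unadjusted limma p under 0.05 (17.9% of all genes), Jarid2 higher and Phc3, Asxl2 and Kmt2a lower. Within the 5 arrays with low Xist 2 members were higher, Ring1 (0.33) and Dnmt3a (0.24), and 4 lower, Phc3, Tet1, Kdm6a and Kmt2a (11.4% and 6.06% of all genes). With each array centred on its median 3 members were higher, Pcgf1, Idh2 and Dnmt3a, and 1 lower, Kmt2a (17.4% and 3.38% of all genes), so the split of 0 higher against 3 lower depended on the scaling. The median change of the members was -0.0065, beside 0.05 over all genes and 0.01 over the brighter genes, with 20 members above 0 and 24 below. These shares and medians describe the list and carry no test of it.

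**Figure D1:**
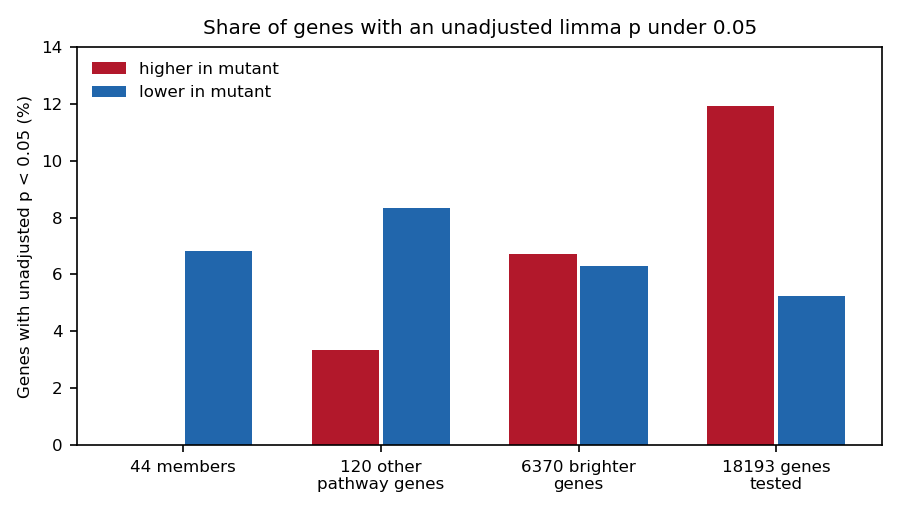
Bars give the percentage of genes with an unadjusted limma p under 0.05, higher (red) or lower (blue) in mutant cells, for the 44 members, 120 other genes of the same pathways, 6370 brighter genes and all 18193 genes. The members show 0% higher and 6.82% lower, while all genes show 11.9% higher and 5.23% lower.

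In the probe set used for each gene, the arrays set narrow limits on most members, about as often as on the brighter genes. Other probe sets of some members, given below, differed from it in size or sign. The 95% interval of the difference lay wholly within 0.5 log2 units of 0 for 40 of 44 members (90.9%), against 74.5% of all genes and 90.5% of the brighter genes. The 4 exceptions were Phf19 (-0.21 to 0.55), Tet1 (-0.53 to 0.15), Kdm6a (-0.94 to 0.14) and Kmt2a (-0.56 to -0.10). The median standard error was 0.09 for the members and 0.10 for all genes. All 44 members read above 7.11, the median of the probe set means, with means over the 8 arrays of 8.04 or more.

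**Figure D2:**
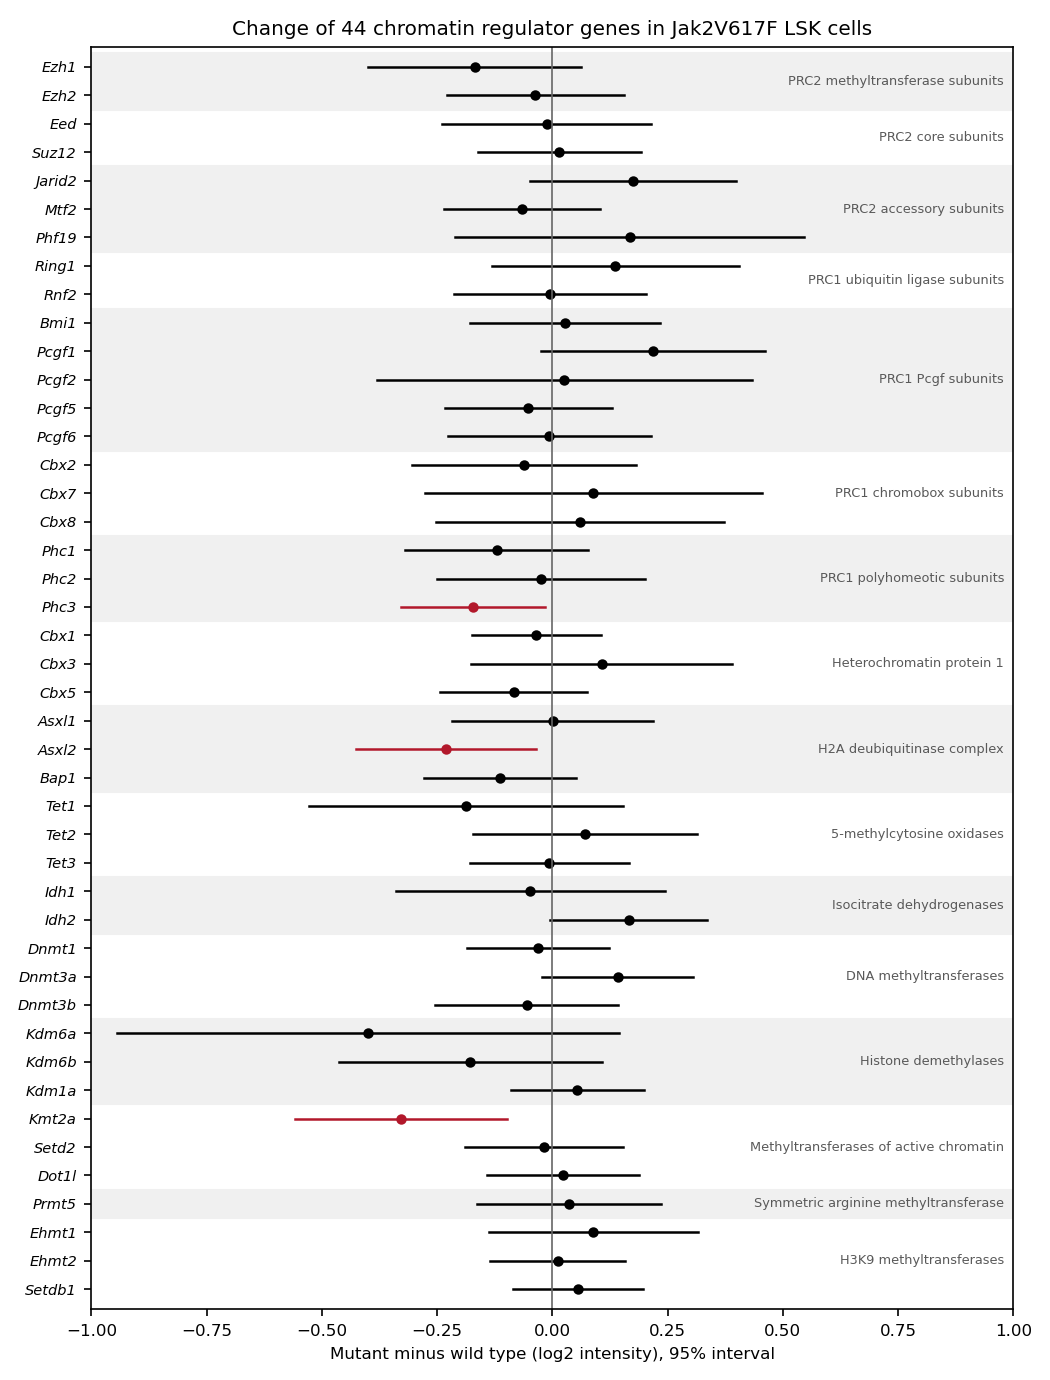
Points give mutant minus wild type in log2 intensity for each of the 44 members, grouped by role, with lines for the 95% interval of the limma fit (4 arrays per genotype), and red marks members with an unadjusted p under 0.05. Only Phc3, Asxl2 and Kmt2a have intervals that leave out 0, and Kdm6a has the widest, from -0.94 to 0.14.

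The starts of 5 of these genes are shown because the first 3 are the members with an unadjusted p under 0.05 and the last 2 are the members whose upstream sequence holds the Stat-type motif TTCNNNGAA. Each run is the 250 bases before the annotated transcription start, 5′ to 3′ on the gene's strand, from RefSeq on build GRCm38.p6. The windows are chr9:44881290-44881539 (minus strand) for Kmt2a, chr12:3426607-3426856 (plus strand) for Asxl2, chr3:30969416-30969665 (minus strand) for Phc3, chr6:122340228-122340477 (minus strand) for Phc1 and chr19:47050907-47051156 (minus strand) for Pcgf6. Capitals mark matches to any of 4 motifs searched on both strands: TTCNNNGAA, the E-box CACGTG, the E2F-type pair TTTCGCGC and TTTGGCGC, and the palindromic motif of Nrf1.
Kmt2a: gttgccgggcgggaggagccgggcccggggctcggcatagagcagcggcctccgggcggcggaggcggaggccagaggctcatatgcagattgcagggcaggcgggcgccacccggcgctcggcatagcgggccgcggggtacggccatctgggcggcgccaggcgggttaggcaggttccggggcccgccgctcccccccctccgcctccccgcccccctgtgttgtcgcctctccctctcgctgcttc
Asxl2: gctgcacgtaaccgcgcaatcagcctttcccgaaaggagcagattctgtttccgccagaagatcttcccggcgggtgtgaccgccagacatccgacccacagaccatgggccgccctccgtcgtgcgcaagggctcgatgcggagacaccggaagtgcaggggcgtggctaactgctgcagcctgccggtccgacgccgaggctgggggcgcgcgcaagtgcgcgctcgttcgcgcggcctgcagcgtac
Phc3: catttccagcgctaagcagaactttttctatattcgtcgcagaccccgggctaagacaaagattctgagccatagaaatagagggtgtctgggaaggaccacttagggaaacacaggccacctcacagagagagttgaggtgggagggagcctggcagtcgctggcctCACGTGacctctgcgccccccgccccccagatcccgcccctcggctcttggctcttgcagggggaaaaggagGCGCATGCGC
Phc1: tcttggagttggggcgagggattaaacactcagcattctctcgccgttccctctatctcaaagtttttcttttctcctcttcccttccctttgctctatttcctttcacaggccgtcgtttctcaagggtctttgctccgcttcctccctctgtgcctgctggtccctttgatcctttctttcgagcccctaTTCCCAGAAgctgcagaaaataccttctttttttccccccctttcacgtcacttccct
Pcgf6: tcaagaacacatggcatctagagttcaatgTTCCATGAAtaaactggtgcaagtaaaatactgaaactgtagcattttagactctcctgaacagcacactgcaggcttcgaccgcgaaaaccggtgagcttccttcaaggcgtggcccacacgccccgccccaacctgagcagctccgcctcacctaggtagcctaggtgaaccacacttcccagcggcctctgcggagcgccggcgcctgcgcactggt
The windows of Kmt2a and Asxl2 hold none of the 4 motifs and are rich in CpG, with 29 and 31 CpG dinucleotides. Phc3 holds CACGTG starting 82 bases before the start and the Nrf1 motif starting 10 bases before it. Of the 45 listed genes, 42 had a sequence in the table, Suv39h1 among them, and of these 2 (4.76%) hold TTCNNNGAA, against 8.13% of 27025 genes, and 10 (23.8%) hold CACGTG, against 6.86%. The E2F-type pair is in 2 of the 42, Cbx3 and Dnmt1 (4.76%, against 0.759%), and the Nrf1 motif in 1 (2.38%, against 0.877%). A gene counted as holding a motif if the window of any of its annotated starts did. CpG and GC content were read from the first annotated start of each gene only. There the 42 genes held a median of 21 CpG dinucleotides, against 6 over all genes. Their median GC content was 65.6%, against 52%. A match here is a description of letters, not of binding. Phc1 lay at -0.12 ± 0.09 (SE) and Pcgf6 at -0.0067 ± 0.10 (SE).

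In PRC2, no subunit differed by more than 0.18 in the probe set used for its gene. Ezh2, its main methyltransferase in dividing cells, read 12.98, 13.07, 13.16 and 13.14 in wild type arrays 1 to 4 and 13.14, 12.87, 13.16 and 13.04 in mutant arrays 1 to 4. The ranges overlapped and the difference was -0.04 ± 0.08 (SE), with a 95% interval from -0.23 to 0.15. Ezh1, the alternative methyltransferase of resting cells, differed by -0.17 ± 0.10 (SE; limma adjusted p = 0.414), or -0.10 when mutant array 1 was left out. A dim Ezh1 probe set, the one left when classes that can read several transcripts were dropped, gave -0.46 at a limma adjusted p of 0.201. The core subunits Eed and Suz12, which the enzyme needs for activity, were at -0.012 and 0.015. The 4 other bright Suz12 probe sets all lay below 0 (-0.07, -0.16, -0.12 and -0.11) and the mean over its probe sets was -0.10, so no direction can be given for Suz12. Of the accessory subunits that guide the complex to DNA, Jarid2 was at 0.18, Phf19 at 0.17 and Mtf2 at -0.07. The other bright Mtf2 probe sets read -0.19, -0.08, 0.01 and -0.21. All 3 probe sets of Jarid2 pointed the same way (0.18, 0.21 and 0.16), and with sex-linked expression as a covariate its unadjusted limma p was 0.0209 (adjusted p = 0.211).

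In PRC1, the polyhomeotic subunit gene Phc3 had a small spread. It read 12.21, 12.20, 12.30 and 12.31 in the wild type arrays and 12.03, 12.16, 12.15 and 12.00 in the mutant arrays. Every mutant array lay below every wild type array, and the difference was -0.17 ± 0.07 (SE), a 1.13-fold lower level with an unadjusted limma p of 0.0343 and an adjusted p of 0.258. Averaged with its other probe set, which was dim (a mean of 3.90) and read 0.13, it gave -0.023. The unadjusted limma p was above 0.05 when wild type array 3 or 4 or mutant array 1 or 4 was left out (0.0748 to 0.0859). Its paralogues Phc1 and Phc2 were at -0.12 and -0.024. The ubiquitin ligase genes Ring1 and Rnf2 were at 0.14 and -0.0054. Another bright Rnf2 probe set read -0.21 ± 0.13 (SE), and its dim ones read 0.006, 0.14 and 0.004. Bmi1, which the stem cell field knows best among the Pcgf subunits, was at 0.03 ± 0.09 (SE), with a 95% interval from -0.18 to 0.23. The other Bmi1 probe set read -0.15 ± 0.10 (SE). Pcgf1, of the variant complexes, had the highest difference of any member, 0.22 ± 0.11 (SE), at a limma adjusted p of 0.331. Pcgf2, Pcgf5 and Pcgf6 were at 0.03, -0.05 and -0.0067. The chromobox subunits, which bind methylated histone H3, were at -0.06 (Cbx2), 0.09 (Cbx7) and 0.06 (Cbx8). The 2 other Cbx7 probe sets read 0.41 and 0.44, and the mean of all 3 gave 0.31 (limma adjusted p of 0.403).

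The complex that removes ubiquitin from H2A pairs the enzyme Bap1 with an Asxl subunit. Asxl1, whose truncation is common in myeloid neoplasms, read 11.34, 11.53, 11.68 and 11.64 in wild type and 11.56, 11.50, 11.70 and 11.42 in mutant arrays. In this probe set the means were the same to within 0.00075, with a 95% interval from -0.22 to 0.22. Its other probe sets read 0.20 and -0.13, so the gene's probe sets differed in sign. Asxl2 read 11.36, 11.52, 11.59 and 11.33 in wild type and 11.26, 11.19, 11.33 and 11.09 in mutant arrays. The groups did not overlap, though wild type array 4 and mutant array 3 were apart only beyond the second decimal. The difference was -0.23 ± 0.09 (SE), a 1.17-fold lower level with an unadjusted limma p of 0.0249 and an adjusted p of 0.235. A further Asxl2 probe set was apart more clearly, at 9.60 to 9.88 in wild type and 9.28 to 9.48 in mutant arrays (-0.32), but others read 0.03 and -0.10, and a dim one 0.36, so the gene's probe sets differed in sign. With probe sets averaged the difference of Asxl2 was -0.05. Bap1 differed by -0.11, and by 0.09 in its other probe set.

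Kmt2a, the founding mixed-lineage leukaemia gene and a writer of active marks at Hox genes, had the smallest p of the members. It read 12.89, 12.71, 13.06 and 13.01 in wild type arrays and 12.42, 12.64, 12.74 and 12.55 in mutant arrays. Wild type array 2 was the lowest of its group and mutant array 3 the highest of its own, so the groups met there and were apart otherwise. The difference was -0.33 ± 0.10 (SE), a 1.26-fold lower level with a 95% interval from -0.56 to -0.10, an unadjusted limma p of 0.0101 and an adjusted p of 0.192. The other Kmt2a probe set gave -0.31 ± 0.15 (SE). Among the 5 arrays with low Xist the groups did not overlap, at 13.01 to 13.06 and 12.42 to 12.64, and the difference was -0.50. Kmt2a was the 1 member with an unadjusted p under 0.05 in all 18 alternative fits that gave member values, with p from 0.00265 to 0.0305 and differences from -0.50 to -0.27, and with adjusted p from 0.124 to 0.371. The set with an unadjusted p under 0.05 was Kmt2a alone when mutant array 4 was left out or probe sets were averaged. It held 6 members when wild type array 1 was left out, 5 when mutant array 3 was left out, and 2 when wild type array 2, 3 or 4 or mutant array 2 was left out. Setd2, which marks transcribed gene bodies, was at -0.018 and Dot1l, which methylates the globular part of H3, at 0.024.

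**Figure D3:**
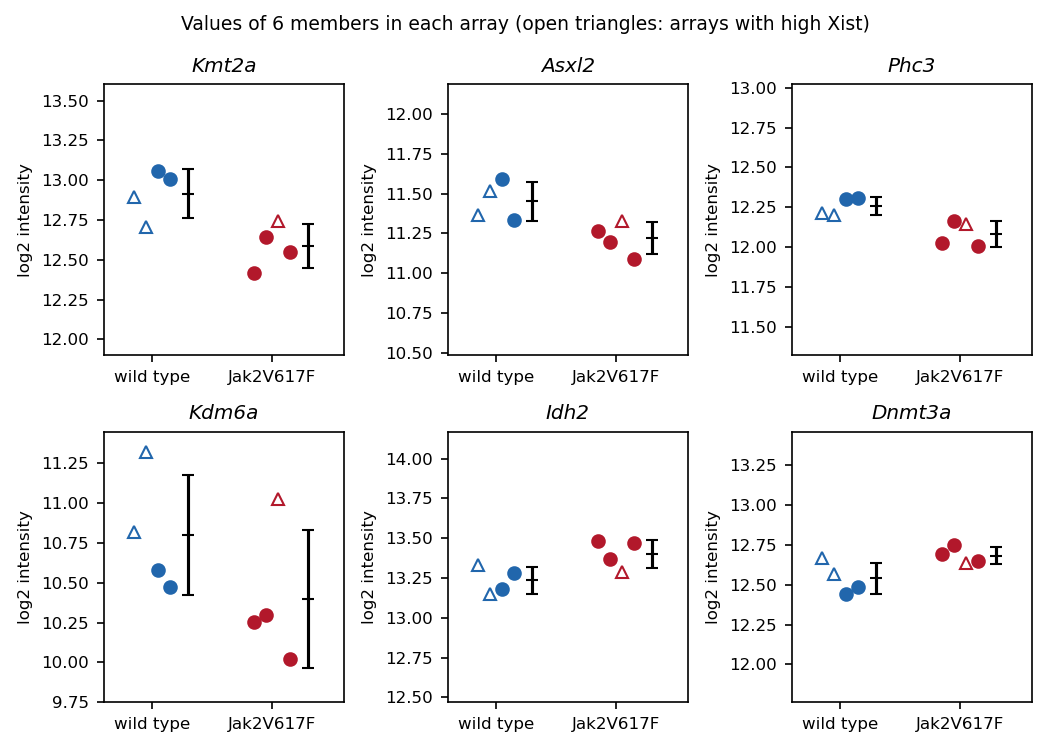
Each point is the log2 intensity of 1 array for Kmt2a, Asxl2, Phc3, Kdm6a, Idh2 and Dnmt3a, with the mean and SD (n = 4 per genotype) beside it, and open triangles mark the 3 arrays with high Xist. Phc3 and, by a very small gap, Asxl2 show no overlap between genotypes, and the highest Kdm6a value of each genotype is an open triangle (11.32 and 11.02).

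Among the histone demethylases, Kdm6a, an X-linked eraser of the PRC2 mark that escapes X inactivation, varied most. It read 10.82, 11.32, 10.58 and 10.47 in wild type and 10.25, 10.30, 11.02 and 10.02 in mutant arrays. Within each genotype the arrays with high Xist were above the rest. The difference over all arrays was -0.40 ± 0.24 (SE; limma adjusted p = 0.41), and -0.23 ± 0.13 (SE) with sex-linked expression as a covariate. Among the arrays with low Xist wild type read 10.47 and 10.58 and mutant 10.02 to 10.30, a difference of -0.34 ± 0.12 (SE) at a limma adjusted p of 0.246. Leaving out mutant array 3 gave -0.61. Another Kdm6a probe set differed by -0.82 ± 0.23 (SE; adjusted p = 0.144 over all probe sets) and a further one by -0.14. The Y-linked paralogue Uty read 8.17 and 8.56 in wild type and 7.98 to 8.26 in mutant arrays with low Xist, and 3.41 to 4.22 in the others. Kdm6b, the other eraser of this mark, was at -0.18 ± 0.13 (SE) in a probe set of a class that can read several genes, and its 2 other probe sets were dim (means of 6.52 and 6.14). Kdm1a, a demethylase of the corepressor complexes of blood progenitors, was at 0.05, with a 95% interval from -0.09 to 0.20.

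Of the DNA methyltransferases, Dnmt1, which copies methylation after replication, read 14.25, 14.32, 14.28 and 14.34 in wild type and 14.39, 14.24, 14.21 and 14.22 in mutant arrays. Its groups overlapped and its difference was -0.03 ± 0.07 (SE). Dnmt3a, which sets new methylation and whose loss enlarges the stem cell pool, read 12.67, 12.57, 12.44 and 12.48 in wild type and 12.69, 12.75, 12.63 and 12.65 in mutant arrays. This probe set gave 0.14 ± 0.07 (SE; limma adjusted p = 0.347), but the 4 other Dnmt3a probe sets all lay below 0, at -0.19, -0.10, -0.25 and -0.09. In the first of these every mutant array (11.91 to 12.13) lay below every wild type array (12.20 to 12.30), and the mean of all 5 gave -0.10, so no direction can be given for Dnmt3a. Dnmt3b was at -0.06.

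Tet2 read 11.26, 11.11, 11.48 and 11.49 in wild type and 11.35, 11.32, 11.60 and 11.35 in mutant arrays. The groups overlapped, with a difference of 0.07 ± 0.11 (SE) and a 95% interval from -0.17 to 0.31. The other Tet2 probe set gave -0.23 ± 0.08 (SE), from 9.28 to 9.51 in wild type and from 9.11 to 9.28 in mutant arrays. Tet1 was at -0.19 ± 0.15 (SE) and all 4 of its probe sets lay below 0 (-0.19, -0.34, -0.21 and -0.16). Among the arrays with low Xist Tet1 lay at 10.98 and 11.39 in wild type and at 10.66 to 10.73 in mutant cells, a difference of -0.48 at a limma adjusted p of 0.204, which rests on 2 wild type arrays. Tet3 was at -0.0064. Idh2, the mitochondrial isocitrate dehydrogenase, read 13.33, 13.15, 13.18 and 13.28 in wild type and 13.48, 13.37, 13.29 and 13.47 in mutant arrays. The groups overlapped at wild type array 1 and mutant array 3, with a difference of 0.17 ± 0.08 (SE; limma adjusted p = 0.302), and its other probe set read -0.012. Idh1, the cytosolic enzyme, read 12.77, 12.82, 12.78 and 12.39 in wild type and 12.42, 12.61, 12.91 and 12.63 in mutant arrays. The groups overlapped (-0.05 ± 0.13, SE), and wild type array 4 stood below the other 3 of its group.

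The arginine methyltransferase Prmt5 read 12.25, 12.56, 12.40 and 12.29 in wild type and 12.44, 12.36, 12.31 and 12.53 in mutant arrays. The mutant values lay inside the wild type range, with a difference of 0.04 ± 0.09 (SE) and a 95% interval from -0.16 to 0.24. Cbx5, the heterochromatin protein HP1 alpha, read 14.02, 14.18, 14.17 and 14.11 in wild type and 14.14, 13.95, 14.02 and 14.02 in mutant arrays. The groups overlapped and the difference in this probe set was -0.08 ± 0.07 (SE), with a 95% interval from -0.24 to 0.08. Its other bright probe sets read -0.15 ± 0.16, -0.13 ± 0.16 and -0.17 ± 0.09 (SE), and a dim one 0.05. The limits of the interval hold for the probe set used only. The other HP1 genes Cbx1 and Cbx3 were at -0.03 and 0.11. For Cbx3 only the probe set that carries a single name was used, as 4 others name a further gene too. The H3K9 methyltransferase genes write the mark that HP1 proteins bind. In the probe set used for each gene they lay close to 0, at 0.09 (Ehmt1), 0.011 (Ehmt2) and 0.06 (Setdb1). The other Ehmt2 probe set, with a mean of 7.57, read 0.23 ± 0.09 (SE; limma adjusted p = 0.251 over all probe sets). Further Setdb1 probe sets read -0.04 and, in a dim one, -0.13.

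**Figure D4:**
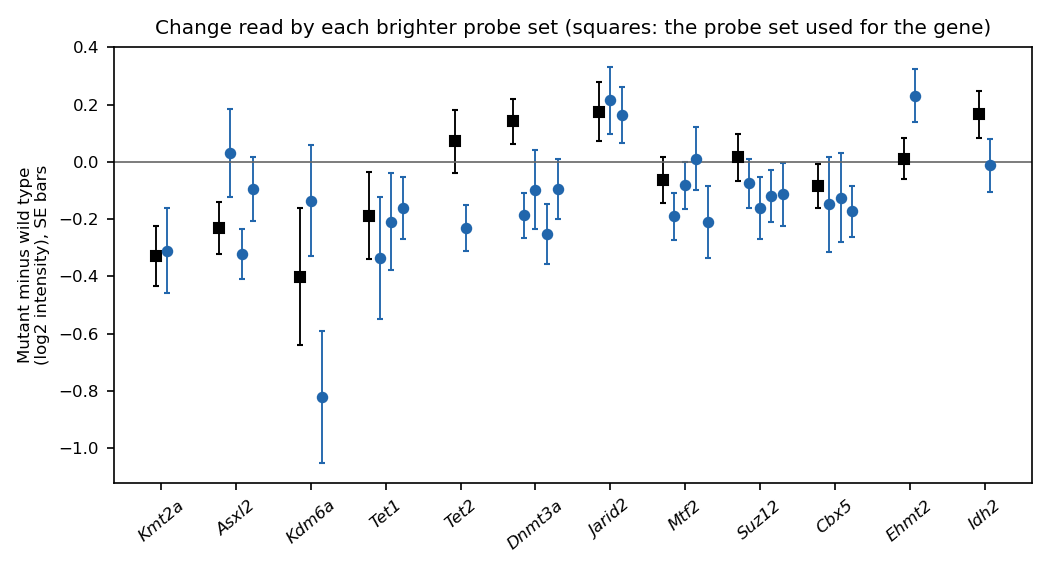
Points give mutant minus wild type in log2 intensity, with SE bars, for each probe set above the median brightness of 12 members, and black squares mark the probe set used for the gene. Both Kmt2a probe sets lie near -0.3 and all 4 Tet1 probe sets below 0, whereas the square of Dnmt3a (0.14) lies above its 4 other probe sets.

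The members had 116 probe sets, of which 96 had a mean at or above the median of the array. Of these 96, 9 had an unadjusted limma p under 0.05 with lower and 1, for Ehmt2, with higher values in mutant cells. Over all probe sets of that brightness 10.3% were lower and 7.63% higher, and 0 member probe sets passed the adjusted threshold, against 0.266%. Of 29 members with over 1 such probe set, 12 had all of them on one side of 0, among them Kmt2a, Tet1, Jarid2, Cbx5 and Kdm6a. The remainder had probe sets on both sides of 0. The share of one-sided genes was not computed over all genes, so this count describes the list only. Dim probe sets were left out of it, and those of Kdm6a and Cbx5 read 0.15 and 0.05. Averaging probe sets gave -0.08 for Tet2, -0.12 for Pcgf6, 0.12 for Ehmt2 and 0.05 for Dnmt3b, and Cbx1 read 0.09 when probe sets of the classes that can read several transcripts were left out.

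The other genes of the same pathways were taken from lists of names. Of 120 measured genes, 0 were called over all genes, 4 had an unadjusted limma p under 0.05 with higher and 10 with lower values, and the median was -0.05. These are 3.33% higher and 8.33% lower, beside 11.9% and 5.23% of all genes and 6.72% and 6.3% of the brighter genes. Of 30 other Polycomb genes 1 was higher at that p, the H2A deubiquitinase gene Usp16 (0.22), and 3 were lower, the Polycomb protein gene Scml2 (-0.25), the Bap1 partner gene Hcfc1 (-0.24) and Foxk1 (-0.18). Of 36 other writers of histone methylation 3 were lower and 0 higher: Kmt2c (-0.26), a relative of Kmt2a, Setd1b (-0.24), which writes H3K4 methylation at promoters, and Kmt5b (-0.28), which writes H4K20 methylation. Kmt2c read 12.78, 12.65, 12.83 and 12.77 in wild type and 12.42, 12.60, 12.59 and 12.38 in mutant arrays, without overlap. Of 19 other demethylases 2 were lower, Phf2 (-0.22) and Kdm2a (-0.17), and 0 higher. The X-linked Kdm5c, the third by p, was at -0.32 ± 0.16 (SE), and read 12.23 to 12.36 in the 3 arrays with high Xist and 11.63 to 11.94 in the others. Of 18 other heterochromatin genes Chaf1b, of the replication-coupled histone chaperone, was higher (0.30), and Atf7ip (-0.24) and Atrx (-0.16) were lower. Of 17 other DNA methylation genes 2 were higher, the germline cofactor gene Dnmt3l (0.39, from a dim 5.61 to 5.99) and the RNA methyltransferase gene Trdmt1 (0.45), with Uhrf2 at -0.26.

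Replication and mitosis genes, with which several of these regulators are known to be co-expressed, held 3 of 24 members higher at an unadjusted p under 0.05 and 0 lower, with a median of 0.09: Plk1 (0.40), Kif20a (0.33) and Cdc20 (0.23). That is 12.5% higher, beside 11.9% of all genes. Their mean level ran from 12.53 to 12.79 in wild type and from 12.56 to 12.88 in mutant arrays, and the part of cycling cells in the members' values was not tested.

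Genes that these systems are known to keep silent were mostly dim in both genotypes. Of 36 measured classical Polycomb targets, 0 were called, 3 had an unadjusted limma p under 0.05 with higher and 1 with lower values, and the median was 0.11, against 0.05 over all genes. These are 8.33% higher and 2.78% lower, beside 11.9% and 5.23% of all genes. Their mean level ran from 5.24 to 5.34 in wild type and from 5.35 to 5.43 in mutant arrays. The cell cycle inhibitor genes Cdkn2c (11.08 and 10.94) and Cdkn1a (10.19 and 10.40) and Hmga2 were bright in both. Hmga2, a chromatin architectural gene of fetal stem cells, had the smallest p of the list. It read 11.84, 12.03, 11.96 and 12.03 in wild type and 12.83, 12.93, 12.27 and 12.61 in mutant arrays, all above wild type, with a difference of 0.69 ± 0.14 (SE), or 1.62-fold, at a limma adjusted p of 0.0861. The next by p, Sox17 (4.20 and 4.45) and Isl1 (5.06 and 4.45), were dim in both genotypes. So were Gata6 (5.17 and 5.45) and the Bmi1 target Cdkn2a, at 4.85 and 4.97.

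Of 22 measured germline genes that DNA methylation holds silent in body cells, 0 were called, 5 had an unadjusted limma p under 0.05 with higher and 1 with lower values, and the median was 0.13. These are 22.7% higher and 4.55% lower, beside 11.9% and 5.23% of all genes. Piwil2, of the small RNA pathway that guards the germline, read 7.62, 7.55, 7.23 and 8.05 in wild type and 8.45, 8.44, 8.42 and 8.45 in mutant arrays. Every mutant array was above every wild type array, with a mean difference of 0.83 ± 0.15 (SE; limma adjusted p = 0.0712). Ddx4, a germline helicase gene whose probe set was not dim here, went the other way, with means of 10.04 in wild type and 9.01 in mutant cells (limma adjusted p of 0.16). The other 4 higher genes, Tex11 (0.46), Dpep3 (0.36), Rhox5 (0.27) and Stk31 (0.21), were dim in both genotypes.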

How the data were processed

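RNA from 4 mice of each genotype was linearly amplified and biotin-labelled before hybridisation, per the labels' protocols. The authors deposited log2 intensities made by RMA with affy in R 2.11.0, per the submitters' processing notes; their range gave the scale. The chip definition was not given in the sources used here. RMA forces a common distribution on the arrays and hides any shift shared by most transcripts.

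Of 45101 probe sets, 64 controls were left out and 34945 had 1 gene symbol in the platform annotation. Each of 18193 genes was represented by its probe set with the highest mean. Genotypes were compared with limma 3.58.1 in R 4.3.3 (two-sided, Benjamini-Hochberg over all genes, threshold 0.05), tested on simulated data. The number of arrays limits the precision.

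The members and lists were chosen with earlier results of these data known. Every member is named. Values per array are given for members with an unadjusted p under 0.05 or groups apart and for 11 genes fixed by name; of pathway and target lists the 3 smallest p are named, of marker lists those that check the sort. Jarid2, Tet1, Pcgf1, the Cdkn genes, other markers and list genes, the further probe sets and the genes drawn in the plots were singled out after their values were seen. Sex was read from Xist. Alternatives were the replicate block, centring, a filter on dim genes, other probe set rules, a trended robust prior, array weights, sex, other thresholds and each array left out.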

Additional observations from a re-analysis of the deposited data

Results flagged for a closer look

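Of 88 groups of 4 arrays, 7 held an array far from the other 3 of its genotype, by Dixon's ratio of gap to range, which chance gives in about 1 group in 20. In mutant array 3, Pcgf6 was low at 10.51 (others 10.82 to 10.87), Cbx2 low at 9.89 (10.03 to 10.05) and Tet2 high at 11.60 (11.32 to 11.35). In mutant array 2, Ehmt2 was high at 12.40 (12.27 to 12.28). Among wild type arrays, Phc1 was low at 11.22 in array 3 (others 11.46 to 11.49). In wild type array 4, Idh1 was low at 12.39 (12.77 to 12.82) and Bap1 low at 11.59 (11.60 to 11.61). The Bap1 gap is small, and its ratio is large because the other 3 arrays nearly coincide.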

How the results depend on the processing

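No member passed the adjusted threshold in any of the 18 alternative fits, and the smallest adjusted p there was 0.124, nor at a threshold of 0.1. Members with an unadjusted p under 0.05 numbered 1 after averaging probe sets, 5 under a trended robust prior and 6 in arrays with male expression, where the members' median was -0.068 on 2 wild type and 3 mutant arrays, and 1 to 6 with an array left out. Median centring gave 3 higher (Pcgf1, Idh2, Dnmt3a) and 1 lower (Kmt2a), where the deposited values gave 0 and 3. Over all genes, 30 calls (19 higher, 11 lower) became 199 at a threshold of 0.1, 8 at 0.01, 47 (37 and 10) with centring, 49 on averaged probe sets, 110 (44 and 66) over all probe sets, 75 (trended robust prior), 60 (sex covariate) and 13 to 40 with an array left out. The differences that turned sign although at least as large as their SE were Dnmt3a (-0.10) and Kdm6b (0.011) with probe sets averaged, and Bap1 (0.087), Idh2 (-0.012) and Kdm6b (0.011) without _s_at, _x_at and _a_at probe sets, which read another probe set. For 28 members the difference was below its SE, and its sign is not given weight. With the replicate block 8 genes and 0 members were called, but same-numbered arrays correlated at -0.02, -0.22, -0.06 and 0.10, and 2 of 8 arrays correlated best with their own number, so the numbers were not taken as pairs.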
